A study of Mus musculus with 2 samples.

Results

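The nuclei described here are neurons of the mouse ventral tegmental area (VTA) that carried transcripts of Slc17a6, the gene of the vesicular glutamate transporter VGLUT2, and that met none of the rules for the inhibitory, dopaminergic or 3 more particular glutamatergic groups of the same tissue. They were 1046 of 27850 barcodes, 875 of 13736 in the CCI library and 171 of 14114 in the WT library. A barcode was taken with at least 500 UMIs (unique molecular identifiers, each standing for 1 captured transcript) and at least 1% of them from 6 neuronal genes (Snap25, Syt1, Meg3, Snhg11, Rbfox3, Nefl). It needed at least 2 Slc17a6 UMIs making up at least 0.03% of its UMIs. It was dropped if Gad1, Gad2 and Slc32a1 together reached 2 UMIs and 0.04%, or if the dopaminergic genes Slc6a3, Slc18a2, Ddc and Th reached 0.1%. It was also dropped if Synpo2, Lef1, Ptpn3 and Prkcd reached 0.1%, if Ebf2, Ebf3 and Lmx1a reached 0.1%, or if Sim1 and Calcr reached 2 UMIs. The Slc17a6 neurons removed by these last 3 steps, 408 in CCI and 33 in WT, are called set aside below. Members are the 1046 nuclei kept, and other neurons are the 13008 remaining gated neurons, the set-aside ones among them.

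The series holds 1 library named CCI and 1 named WT, both from the VTA of adult mice and made with 10x Genomics 3′ v2 chemistry after dissociation with the Adult Brain Dissociation Kit. CCI is chronic constriction injury, a ligature model of neuropathic pain, applied to the left sciatic nerve. On the right side the nerve was exposed and left unligated. The design text speaks of single nuclei, while the protocol describes tissue dissociation, so that barcodes are called nuclei here after the design text alone. The labels give no genotype or injury for WT beyond its name, and no age, strain, sex, number of pooled animals or hemisphere. With 1 library per group no difference between the libraries has a replicate check, no test was possible, and animal, dissection, library and injury cannot be told apart. Intervals are 95% counting intervals over UMIs or nuclei and cover counting error only.

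Excitatory neurons load glutamate into synaptic vesicles with a VGLUT transporter. VGLUT2 is the usual form in the midbrain, thalamus and hypothalamus, while VGLUT1, the product of Slc17a7, is typical of cortex and hippocampus. VTA neurons with VGLUT2 lie among dopaminergic and GABAergic cells, some of them carrying more than 1 transmitter, and they send axons to the nucleus accumbens, habenula and cortex. Adcyap1 encodes PACAP, a neuropeptide that raises cyclic AMP through its receptor. Cbln2 encodes cerebellin 2, a secreted protein that binds presynaptic neurexins and helps organise synapses. Ntng1 encodes netrin-G1, a membrane-anchored axonal protein that binds the ligand NGL1 (gene Lrrc4c) across the synapse.

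Depth differed strongly between the libraries. The CCI library held 68376220 UMIs and the WT library 18581333. Gated neurons had a median of 6407 UMIs in CCI and 1664 in WT, and members a median of 6129 (749 to 25226) in CCI and 2338 (578 to 13640) in WT. The median share of mitochondrially encoded UMIs in members was 0.161% in CCI and 0.293% in WT. Scrublet marked 68 CCI members (7.77%) and 19 WT members (11.1%) as possible doublets, against 9.81% of other CCI neurons and 12.5% of other WT neurons. Of 54 barcode sequences present in both libraries, 1 was a member in both.

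The gate on Slc17a6 acted differently at these depths. CCI members held a median of 3 Slc17a6 UMIs and at most 15, and 301 of them (34.4%) had exactly the required 2. WT members held a median of 2 and at most 5, and 147 of them (86.0%) had exactly 2. Just outside the rule, 846 CCI and 652 WT neurons had 1 Slc17a6 UMI and passed every exclusion. A further 372 CCI neurons and 1 WT neuron had at least 2 UMIs but fell below 0.03%. The percent limit therefore set the edge mostly in the deeper library and the UMI limit mostly in the shallower one. Levels are given in CPM, a gene's summed UMIs scaled to the same total of UMIs in each group of nuclei. In members Slc17a6 stood at 495 CPM in CCI and 832 CPM in WT. Both values are a product of the gate and are given as a description. Of all Slc17a6 UMIs in gated neurons, 37.9% lay in members in CCI and 28.9% in WT. Over all gated neurons, which the gate on Slc17a6 did not choose, Slc17a6 stood at 147 CPM in CCI and 102 CPM in WT.

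Members made up 11.9% of gated neurons in CCI (11.2 to 12.7%, 875 of 7335) and 2.55% in WT (2.18 to 2.95%, 171 of 6719), a 4.69-fold ratio. This ratio moved with depth. Barcodes were first thinned to a set number of UMIs, and those with fewer were left out. At 1000 UMIs, 66 of 7230 CCI neurons (0.913%) and 28 of 5483 WT neurons (0.511%) passed, a 1.79-fold ratio. At 2000 UMIs, 260 of 7087 CCI neurons (3.67%) and 52 of 2411 WT neurons (2.16%) passed, a ratio of 1.70. At 3000 UMIs, 489 of 6684 CCI neurons (7.32%) and 36 of 846 WT neurons (4.26%) passed, a ratio of 1.72. The thinned WT shares at 2000 and 3000 UMIs thus cover only the deeper WT neurons. The share was higher in the CCI library at each depth, and the ratio was much smaller at equal depth than without thinning. With 1 Slc17a6 UMI required in place of 2, the log2 ratio of the shares was 0.28 in place of 2.23, and with 3 it was 4.45. The intervals at 1000 UMIs were 0.707 to 1.16% in CCI and 0.340 to 0.737% in WT. The number of animals behind either share is not given.

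**Figure D1:**
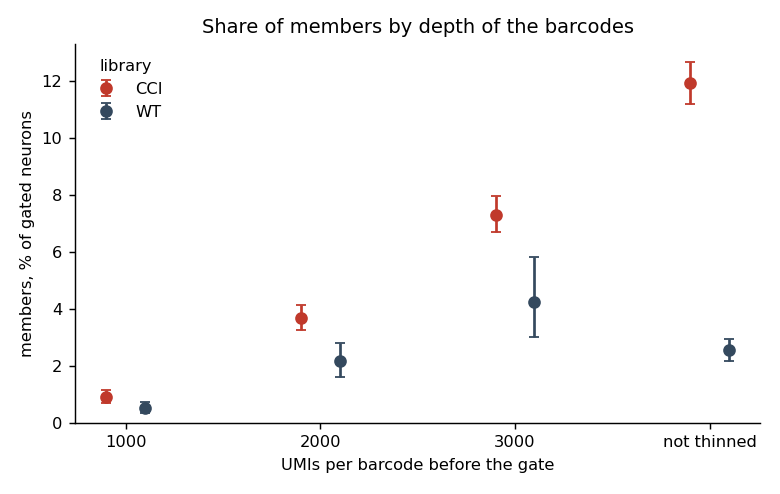
Members as a percentage of gated neurons (vertical axis) in the CCI library and the WT library, by depth (horizontal axis). Barcodes were thinned to 1000, 2000 or 3000 UMIs before the gate, with shallower ones left out, or were not thinned. At 3000 UMIs 846 WT neurons and 6684 CCI neurons remained. Points are shares and bars exact 95% binomial intervals; the libraries lie 1.79-fold apart at 1000 UMIs and 4.69-fold apart without thinning.

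The name glutamatergic rests on Slc17a6, the gate gene, and the values that follow describe the members without testing that name. Genes of glutamate synthesis and transport had a median log2 ratio over other neurons of 0.01 in CCI and 0.31 in WT. Slc17a7 had 2 UMIs over all CCI members (0.33 CPM) and 0 over all WT members. Slc17a8, which encodes VGLUT3, had 7 UMIs in CCI and 0 in WT. The 10 GABAergic markers summed to 131 CPM in CCI members and 96.0 CPM in WT members, against 371 CPM in other CCI neurons and 372 CPM in other WT neurons. The 10 dopaminergic markers summed to 160 CPM in CCI members and 196 CPM in WT members, against 533 CPM in other CCI neurons and 995 CPM in other WT neurons. Parts of both lists belong to the gate, so their low level in members follows from the rule. Residual UMIs remained inside it: 154 CCI members (17.6%) and 11 WT members (6.43%) carried a UMI of Gad1, Gad2 or Slc32a1. A UMI of a dopaminergic gate gene occurred in 246 CCI members (28.1%) and 28 WT members (16.4%). All 18 Hox and related hindbrain genes were at 0 in the members of both libraries. Serotonergic and cholinergic markers (7 genes) summed to 60.9 CPM in CCI and 37.9 CPM in WT, and Fev, the serotonergic transcription factor, was at 0 in both. Of 14 cortical excitatory markers, 6 were at 0 in WT members, Slc17a7, Tbr1 and Emx1 among them, and none was at 0 in CCI members.

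RNA of glial cells was present at low level in members. Oligodendrocyte markers (14 genes) summed to 764 CPM in CCI members and 1511 CPM in WT members, and in other neurons to 786 CPM in CCI and 2089 CPM in WT. Astrocyte markers (14 genes) summed to 382 CPM in CCI members and 326 CPM in WT members. Oligodendrocyte precursor markers (8 genes) summed to 904 CPM in CCI and 1018 CPM in WT, microglial markers (10 genes) to 138 CPM in CCI and 154 CPM in WT, and vascular markers (10 genes) to 11.1 CPM in CCI and 11.2 CPM in WT. The defining genes Gfap and Aldh1l1 for astrocytes, C1qa, C1qb and Csf1r for microglia, and Cldn5 and Pecam1 for vessels were at 0 in WT members, while all of them were detected in the deeper CCI members. The part of this RNA in the results was not tested.

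Adcyap1 stood higher in members than in other neurons of both libraries, beyond counting error in CCI. The gene (ENSMUSG00000024256) lies at chr17:93199017-93206537 on the plus strand of mm10. It stood at 59.9 CPM in CCI members (53.8 to 66.4, 361 UMIs) and 46.9 CPM in WT members (29.0 to 71.6, 21 UMIs). Other neurons had 29.0 CPM in CCI and 30.7 CPM in WT. The log2 ratio of members over other neurons was 1.05 in CCI (0.88 to 1.21) and 0.61 in WT, where the interval of −0.10 to 1.24 includes 0. With the gate applied after thinning to 1000 UMIs it was 0.75 in CCI and 2.19 in WT, from 66 and 28 nuclei. Barcodes outside the neuron gate, which should largely lack it, had 10.5 CPM in CCI and 7.82 CPM in WT. With each nucleus thinned to 1000 UMIs, 65 of 874 CCI members (7.44%) and 10 of 166 WT members (6.02%) had an Adcyap1 UMI. At the same depth the share was 2.83% of other neurons in CCI and 2.89% in WT, and 1.22% of barcodes outside the neuron gate in CCI and 0.52% in WT. Without thinning it was 26.5% of CCI members and 11.1% of WT members. The set-aside neurons, which also have Slc17a6, had 31.7 CPM of Adcyap1 in CCI, and within them the level ranged between 7.44 CPM in those removed by the Synpo2 step and 68.5 CPM in those removed by the Ebf step. Adcyap1r1, which encodes the PACAP receptor, differed less between members and other neurons, by log2 0.17 in CCI and 0.41 in WT.

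Cbln2 (ENSMUSG00000024647) stood at 30.7 CPM in CCI members (26.4 to 35.4, 185 UMIs) and 40.2 CPM in WT members (23.8 to 63.5, 18 UMIs). Other neurons had 19.6 CPM in CCI and 22.3 CPM in WT. The log2 ratio was 0.65 in CCI (0.41 to 0.87) and 0.85 in WT (0.07 to 1.53), so both intervals lay above 0. With the gate applied after thinning it was 0.37 in CCI and 1.54 in WT. At 1000 UMIs a Cbln2 UMI was found in 3.43% of CCI members and 4.22% of WT members, against 2.31% of other neurons in CCI and 2.40% in WT. Outside the neuron gate the share was 0.714% in CCI and 0.817% in WT. Compared with the set-aside neurons of CCI, at 25.6 CPM, the ratio was smaller, at 0.26 (−0.11 to 0.64). Set-aside CCI neurons of the Ebf step alone had 37.9 CPM of Cbln2 (24.7 to 55.5), a value above that of the members with an overlapping interval. Of 13 cerebellin and C1q-type genes measured, 2 were at least 1.5-fold higher in members than in other neurons of CCI and 0 lower. In WT 4 were higher and 1 lower, and the median log2 ratio was 0.12 in both libraries. The higher genes of each library include Cbln2 itself, which was given as a marker of the members. Of all genes with at least 20 UMIs, 2.38% were higher in CCI and 10.6% in WT. Within this list Cbln1 was higher by log2 0.54 in CCI and 1.09 in WT, and Cbln4 by 0.45 in CCI and 0.58 in WT. C1ql1 was higher by 1.22 in CCI and 1.36 in WT. Each of these 3 rests on 9 or fewer WT UMIs.

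Ntng1 did not mark the members in the same way. The gene (ENSMUSG00000059857) lies at chr3:109780040-110144011 on the minus strand. It stood at 855 CPM in CCI members (832 to 879) and 1076 CPM in WT members (982 to 1176). Other neurons had 857.5 CPM in CCI and 539 CPM in WT. The log2 ratio was therefore −0.00 in CCI (−0.05 to 0.04) and 1.00 in WT (0.86 to 1.13). The set-aside neurons had more Ntng1 than the members in both libraries, with 2276 CPM in CCI and 1533 CPM in WT, and those removed by the Synpo2 step alone had 3805 CPM in CCI and 2965 CPM in WT. In CCI, 177 such nuclei entered the other neurons, and in WT 11. At 1000 UMIs, 45.4% of CCI members and 50.6% of WT members had an Ntng1 UMI, against 36.2% of other CCI neurons and 31.4% of other WT neurons. Outside the neuron gate the share was 16.5% in CCI and 9.44% in WT. The paralog Ntng2, encoding netrin-G2, was higher in members in each library, with 41.0 CPM in CCI and 44.6 CPM in WT, against 23.5 CPM in other CCI neurons and 18.0 CPM in other WT neurons. A transcript annotated as 6530402F18Rik overlaps Ntng2 on the same strand, so their reads may be shared.

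**Figure D2:**
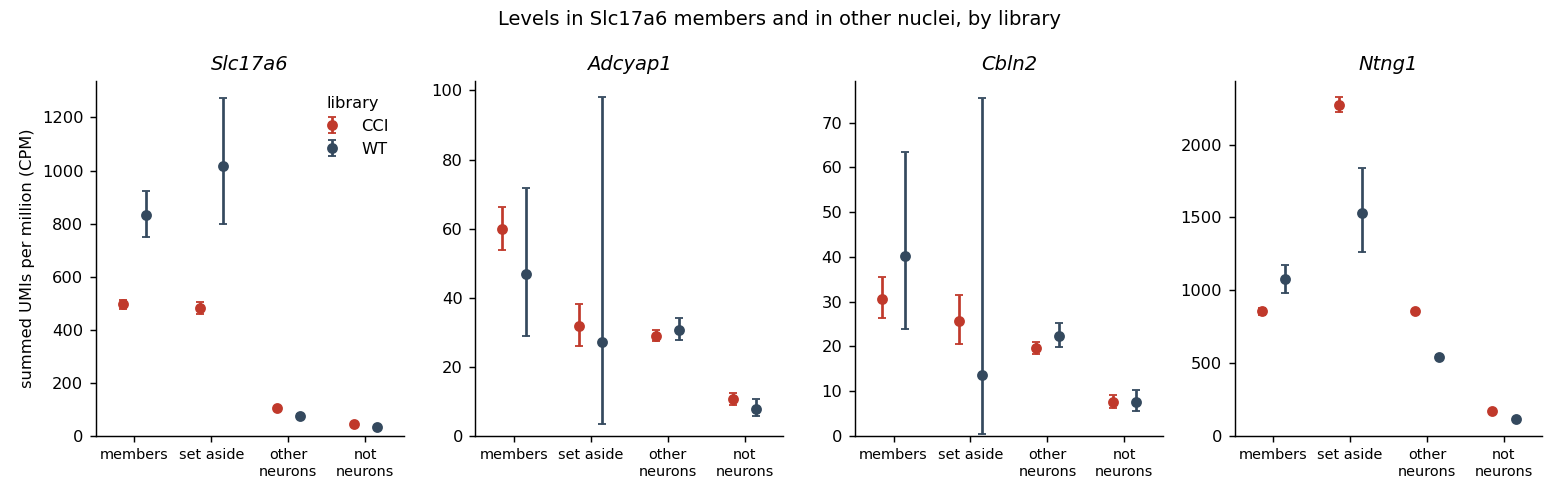
Levels in CPM (vertical axes) of Slc17a6, Adcyap1, Cbln2 and Ntng1 in members, set-aside Slc17a6 neurons, other neurons and barcodes outside the neuron gate, for the CCI and the WT library. Bars are 95% counting intervals. Among the CCI groups drawn, Adcyap1 and Cbln2 are highest in members, while Ntng1 is highest in the set-aside neurons of both libraries. The set-aside neurons are pooled over their steps. Not drawn, those of the Ebf step in CCI lay above members in Adcyap1 and Cbln2, with overlapping intervals. Only those of the Synpo2 step lay above members in Ntng1.

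Levels were next set against the number of Slc17a6 UMIs itself, among neurons that passed every exclusion. Each nucleus was thinned to 1000 UMIs and grouped by 0, 1 or at least 2 Slc17a6 UMIs, which gave 3222, 553 and 89 nuclei in CCI and 3266, 400 and 29 in WT. The CPM of all their UMIs were then compared. Adcyap1 stood at 45.7, 63.2 and 74.1 CPM over these steps in CCI, and at 34.6, 44.5 and 138 CPM in WT, where the last step holds 7 UMIs. It was higher at each further step in both libraries, and the intervals of neighbouring steps overlap except between 0 and 1 Slc17a6 UMI in CCI. Ntng1 stood at 653, 828 and 852 CPM in CCI and at 558, 911 and 811 CPM in WT, and the nuclei with no Slc17a6 UMI were lowest in each. Cbln2 stood at 24.3, 30.8 and 26.5 CPM in CCI, with no steady order, and at 25.7, 45.8 and 59.3 CPM in WT, where the last step rests on 3 UMIs. Gad2 ran the other way, at 49.5, 22.5 and 17.6 CPM in CCI and at 63.7, 15.3 and 0 CPM in WT, a gene that the exclusions themselves limit.

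Adcyap1 and Cbln2 were seldom found together in 1 member. At 1000 UMIs, 1 of 874 CCI members had both, against 2.23 if their shares were independent, and 1 of 166 WT members had both, against 0.42. Without thinning, 30 CCI members had both, against 37.4. Adcyap1 and Ntng1 occurred together in 26 CCI members, against 29.5 for independent shares, and in 6 WT members, against 5.06. Cbln2 and Ntng1 occurred together in 16 CCI members, against 13.6, and in 3 WT members, against 3.54. With so few pairs, a departure from independence was not detectable at this depth.

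Few genes differed by 1.5-fold between members and other neurons in both libraries. Among 6591 genes with at least 100 UMIs in members and at least 10 in each library, 13 were at least 1.5-fold higher in members of both (0.197%) and 29 at least 1.5-fold lower (0.44%). With the gate applied after thinning to 1000 UMIs, which leaves 66 CCI and 28 WT members, 85 genes were higher in both. Of the 13, Slc17a6 chose the members and Adcyap1 and Cbln2 were given as their markers. The other 10 were Cacna2d1, Nrn1, Tmem163, Ntng2, Gulp1, Bdnf, Pappa2, Myo3b, Adamts2 and D130079A08Rik. Among the 29 lower ones were Meis2, a transcription factor of GABAergic lineages, at 23.9 CPM in CCI members and 44.6 CPM in WT members, against 140 CPM in other CCI neurons and 75.6 CPM in other WT neurons. Nrxn3, encoding the presynaptic adhesion protein neurexin 3, was lower as well, at 1710 CPM in CCI members and 3068 CPM in WT members, against 5124 CPM in other CCI neurons and 6311 CPM in other WT neurons. Sox6, Ret and Slc18a2, which are found in dopaminergic neurons, were also in the lower group, Slc18a2 being a gate gene. Meis2, Nrxn3, Sox6 and Ret were picked for mention after their values were seen, as was Bdnf among the higher genes.

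Cacna2d1, the calcium-channel subunit alpha2delta-1 that gabapentinoid drugs bind, led the ranking by the interval bound nearest 0. It stood at 1099 CPM in CCI members and 1111 CPM in WT members, against 650 CPM in other CCI neurons and 538 CPM in other WT neurons. The log2 ratio was 0.76 in CCI (0.72 to 0.79) and 1.05 in WT (0.91 to 1.18). Along the Slc17a6 steps it stood at 815, 1065 and 1295 CPM in CCI and at 612, 1023 and 1306 CPM in WT, higher at each step. Nrn1, encoding the activity-regulated neurite protein neuritin, had 53.6 CPM in CCI members and 103 CPM in WT members, against 27.4 CPM in other CCI neurons and 45.4 CPM in other WT neurons. Its step values were 31.1, 39.9 and 49.4 CPM in CCI and 48.3, 80.1 and 158 CPM in WT. Tmem163, a zinc transporter of synaptic vesicles, had 317 CPM in CCI members and 379 CPM in WT members, against 196 CPM in other CCI neurons and 172 CPM in other WT neurons. Bdnf, the neurotrophin gene, had 56.5 CPM in CCI members and 62.5 CPM in WT members, against 30.9 CPM in other CCI neurons and 36.6 CPM in other WT neurons.

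Several of these genes stood at a like level in the set-aside Slc17a6 neurons. Cacna2d1 had 968 CPM there in CCI and 990 CPM in WT, so that members exceeded them by log2 0.18 in CCI and 0.17 in WT. Nrn1 had 51.5 CPM in set-aside CCI neurons and 94.9 CPM in set-aside WT neurons, close to the members in both. Tmem163 was higher in set-aside CCI neurons than in members, at 372 CPM, and lower in set-aside WT neurons, at 258 CPM. Gulp1 had 88.6 CPM in set-aside CCI neurons and 203 CPM in set-aside WT neurons. Bdnf and Ntng2 stayed higher in members than in the set-aside neurons as a whole. Bdnf did so by log2 0.62 in both libraries, and Ntng2 by 0.94 in CCI and 0.72 in WT. The WT values rest on 33 set-aside nuclei. That of Ntng2 rests on 2 UMIs there, with an interval of −1.32 to 3.86. CCI nuclei of the Ebf step alone had 74.3 CPM of Ntng2 (55.3 to 97.7), above the 41.0 CPM of CCI members.

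Further genes of this ranking were higher in members of both libraries. Among them were Gulp1 (log2 0.66 in CCI and 0.93 in WT), Ndst4, a heparan sulfate enzyme (0.57 in CCI and 1.08 in WT), Arpp21 (0.52 in CCI and 0.83 in WT) and Etl4 (0.45 in CCI and 0.88 in WT). Rmst, a long noncoding RNA of the midbrain, followed at 0.54 in CCI and 0.53 in WT, and Tafa1 at 0.46 in CCI and 0.54 in WT. Unc13c, a vesicle priming protein, had 0.39 in CCI and 0.62 in WT, and Ryr2, the calcium release channel, 0.31 in CCI and 0.55 in WT. Oxr1 had 0.29 in CCI and 0.43 in WT, and Syt2, a fast calcium sensor of release, 0.38 in CCI and 1.01 in WT. Nrn1 overlaps Fars2, Tmem163 overlaps Mgat5, Arpp21 overlaps 2900079G21Rik and Etl4 overlaps Gm13362 on the other strand, and Rmst overlaps small gene models on its own strand.

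Against the set-aside neurons, 125 of the same genes were at least 1.5-fold higher in members of both libraries (1.90%) and 122 at least 1.5-fold lower (1.85%). These values rest on only 33 WT nuclei. Kcnip4, which encodes a potassium channel interacting protein, was lower in members, with 4614 CPM in CCI and 4200 CPM in WT, against 14221 CPM in set-aside CCI neurons and 9576 CPM in set-aside WT neurons. Plekhg1 was lower by log2 −3.62 in CCI and −3.66 in WT, Vav3, a guanine nucleotide exchange factor, by −2.41 in CCI and −1.59 in WT, Osbpl3 by −2.21 in CCI and −2.74 in WT, and Sh3d19 by −2.16 in CCI and −2.13 in WT. Lrrc7, encoding densin-180 of the postsynaptic density, was lower by −1.25 in CCI and −1.26 in WT, Nell2 by −1.07 in CCI and −1.86 in WT, and Ppp4r4 by −1.07 in CCI and −2.14 in WT. Higher in members was Zfpm2, a cofactor of GATA factors, with 189 CPM in CCI and 239 CPM in WT, against 86.3 CPM in set-aside CCI neurons and 40.7 CPM in set-aside WT neurons. Lrrc4c, the netrin-G1 ligand gene, had 2478 CPM in CCI members and 4429 CPM in WT members, against 1593 CPM in set-aside CCI neurons and 2129 CPM in set-aside WT neurons. Ntng1 itself ran the other way between these groups, with log2 ratios of −1.41 in CCI and −0.51 in WT. Among the set-aside neurons only those of the Synpo2 step lay above the members in Ntng1. Pcdh7, Arrb1, Lgi2, Myo16, Neto2 and Ttc28 were also higher, by log2 0.51 to 0.95 in CCI, and Arrb1 and Lgi2 had no UMI in set-aside WT neurons.

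Several gene lists differed little between members and other neurons, while immediate early genes stood higher in members by their median, which was larger in CCI. The median log2 ratio of members over other neurons over all genes with at least 20 UMIs was 0.04 in CCI and 0.00 in WT, and 2.38% of genes were at least 1.5-fold higher in CCI and 10.6% in WT. Of 13 immediate early genes measured, which neurons switch on after activity, 6 were at least 1.5-fold higher in members of CCI and 0 lower. In members of WT 4 were higher and 1 lower. The median was 0.54 in CCI and 0.19 in WT. Fos was higher by 0.95 in CCI and 1.30 in WT, Nr4a3 by 0.90 in CCI and 1.11 in WT, and Junb by 0.80 in CCI and 0.55 in WT, each on at most 5 WT UMIs. The AMPA and kainate receptor list had a median of 0.03 in CCI and 0.06 in WT, and the vesicle release list −0.02 in CCI and 0.02 in WT. Genes of glutamate synthesis and transport had a median of 0.01 in CCI and 0.31 in WT, with 0 of 9 past 1.5-fold in CCI and 1 of 9 in WT, which was Got2 at 0.77.

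The members were not uniform. Leiden clustering without the gate genes and without Adcyap1, Cbln2 and Ntng1 gave 16 subclusters of 14 to 142 nuclei. They are numbered and described by their leading genes, which define them and are no finding, and none is given a cell type name. Slc17a6 ranged only between 473 and 711 CPM across them, as the gate requires some in every nucleus. Adcyap1, Cbln2 and Ntng1, held out of the clustering, varied more. Adcyap1 ranged between 0 UMIs in subcluster 12 (95% upper limit 22.7 CPM) and 159 CPM in subcluster 6 (127 to 196). Cbln2 ranged between 0 UMIs in subcluster 13 (upper limit 36.4 CPM) and 123 CPM in subcluster 12 (75.1 to 190). Ntng1 ranged between 77.4 CPM in subcluster 14 (33.4 to 152) and 2686 CPM in subcluster 9 (2483 to 2901).

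Subcluster 6 (82 CCI and 9 WT nuclei), where Adcyap1 was highest, was led by Wdr95, Vgf, Egr1, Pcsk1 and Nr4a2. Vgf, a secreted granule protein, stood at 220 CPM there and at 39.8 CPM in the other members, Pcsk1, a prohormone convertase, at 224 CPM and 48.6 CPM, and Bdnf at 152 CPM and 48.1 CPM. Subcluster 8 (47 CCI and 4 WT nuclei), led by Myo5b and Mamdc2, also had much Adcyap1, 94.3 CPM (62.2 to 137). It held the highest level of Nkx2-1, a transcription factor of ventral forebrain and hypothalamus, at 45.4 CPM, and of Cartpt, the gene of the CART peptide, at 55.9 CPM. Subcluster 3 (98 CCI and 6 WT nuclei), led by Csf2rb2 and Adgrv1, had 70.9 CPM of Adcyap1 (53.1 to 92.7) but only 6.69 CPM of Cbln2 (2.17 to 15.6). Nfib stood at 575 CPM there and at 67.0 CPM in the other members, and Tac1, the substance P gene, was highest there at 76.2 CPM.

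Cbln2 was highest in subclusters 12 and 0. Subcluster 12 (21 CCI and 2 WT nuclei) was led by Lypd6b, Wnt4 and Kitl and held the highest Foxp2, 1796 CPM. It had no Adcyap1 UMI. Subcluster 0 (125 CCI and 17 WT nuclei), led by Trhde and Lncbate1, had 66.4 CPM of Cbln2 (50.9 to 85.1) and 71.8 CPM of Adcyap1 (55.6 to 91.1). Lmx1b, a transcription factor of midbrain floor plate derivatives, stood at 72.8 CPM in subcluster 0 and at 167 CPM in subcluster 10 (36 CCI and 4 WT nuclei), which was led by Usp43 and Cdh23. In subcluster 10 the same nuclei held Ntng2 at 237 CPM, against 32.6 CPM in the other members, but only 229 CPM of Ntng1 (176 to 293) and 1 UMI of Cbln2. Ntng2 is among the leading genes of subcluster 10, so its level there is no finding, while Ntng1 was held out of the clustering.

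Ntng1 was highest in subclusters 9, 13 and 4. Subcluster 9 (36 CCI and 4 WT nuclei) also carried Synpo2 at 261 CPM, a gate gene that stayed under its limit of 0.1% in each nucleus, and Tcf7l2 at 729 CPM, Lhx9 at 70.5 CPM, Shox2 at 45.6 CPM and Zic4 at 37.3 CPM. These transcription factors are known from the thalamus and pretectum. The set-aside neurons removed by the Synpo2 step had the highest Ntng1 of all groups, and Synpo2 was also present in subcluster 12, at 338 CPM. Subcluster 13 (14 CCI and 2 WT nuclei) was led by Arhgap28 and Rxfp1, with 1669 CPM of Ntng1. Subcluster 4 (64 CCI and 36 WT nuclei) was led by Spp1, Tll1 and Nefh and had 1398 CPM of Ntng1 (1308 to 1493) and 23.4 CPM of Adcyap1 (13.1 to 38.5). Nefm, a neurofilament subunit, stood at 215 CPM there and at 33.2 CPM in the other members, and Syt2 at 333 CPM and 60.5 CPM. Pvalb, the calcium buffer parvalbumin, was highest there at 29.6 CPM, as was the nuclear receptor gene Esrrg at 1004 CPM.

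The other subclusters were led by Tcf7l2 and Dpp10 (subcluster 1, 98 CCI and 20 WT nuclei), Dlk1 and Pcp4 (2, 80 and 30 nuclei), and Sox2ot and Ankfn1 (5, 81 and 15 nuclei). Subcluster 11 (20 CCI and 8 WT nuclei) was led by Foxd2os and Gulp1, with Gulp1 at 1329 CPM there and 68.2 CPM in the other members. Subcluster 14 (14 CCI nuclei and 0 WT nuclei) was led by Pax5, with Lhx1 at 174 CPM and Pou4f1 at 77.4 CPM. Subcluster 7 (48 CCI and 11 WT nuclei) was led by oligodendrocyte genes such as Mag and Mbp, and 96.6% of its nuclei were Scrublet calls. Subcluster 15 (11 CCI and 3 WT nuclei) was led by astrocyte genes such as Slc1a3, and all of its nuclei were Scrublet calls. Only subclusters 1, 2 and 4 held at least 20 nuclei of each library. The largest subclusters were 4 and 2 among WT nuclei, with 36 and 30 of 171. Among CCI nuclei they were 0, 1 and 3, with 125, 98 and 98 of 875. These counts follow a gate that acts differently at the libraries' depths.

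**Figure D3:**
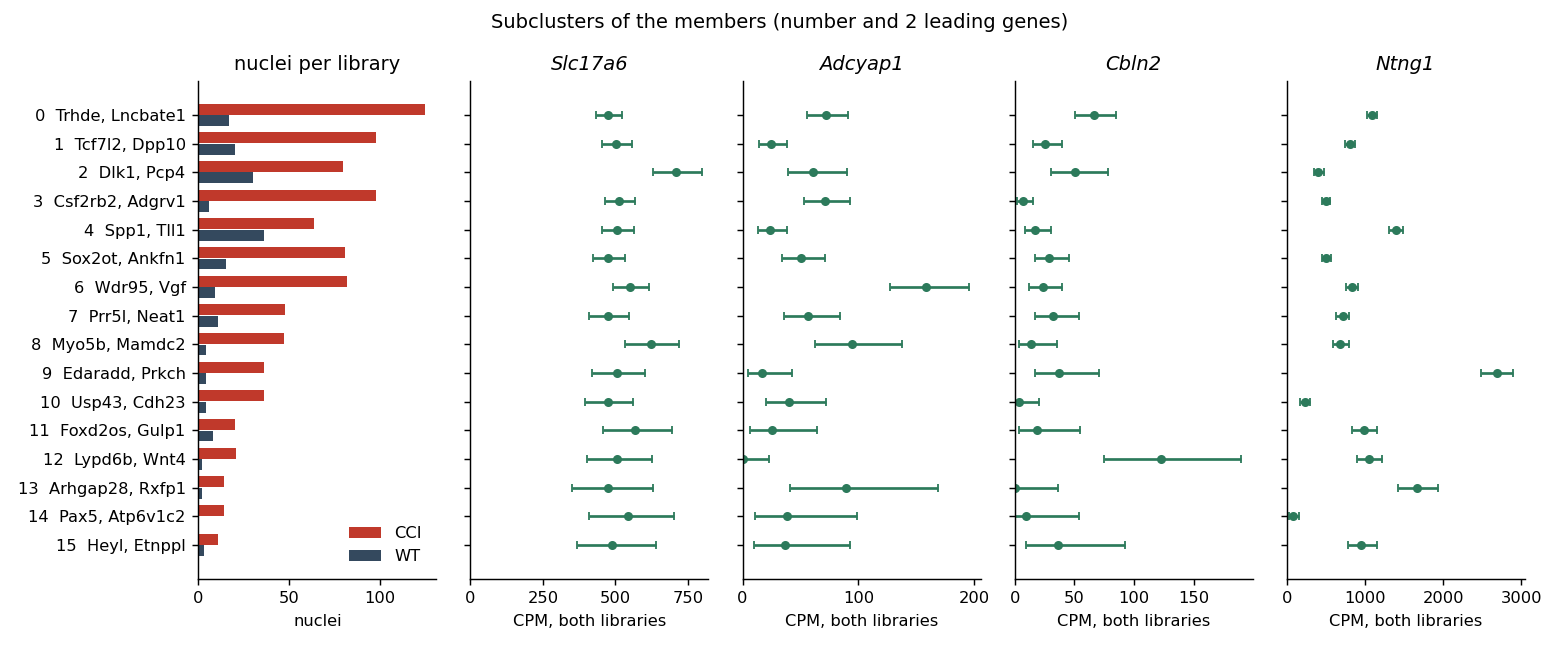
Nuclei per library in each of the 16 subclusters of the members (left panel, CCI bar above WT bar) and the levels in CPM of Slc17a6, Adcyap1, Cbln2 and Ntng1 over both libraries, with 95% counting intervals. Slc17a6 stays between 473 and 711 CPM, whereas Adcyap1 peaks in subcluster 6, Cbln2 in subcluster 12 and Ntng1 in subcluster 9.

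The CCI library was then compared with the WT library within members, from 6031080 UMIs in CCI and 448137 in WT. Of 8261 genes with at least 100 UMIs, 1264 were at least 1.5-fold higher in CCI (15.3%) and 478 at least 1.5-fold lower (5.79%). The median log2 ratio was 0.06 in members and 0.03 in other neurons. Because CCI supplied most of the UMIs, a gene could reach 100 UMIs with almost none in WT but hardly the reverse. With a minimum of 20 UMIs, 20.2% of 13507 genes were higher and 10.5% lower. With members thinned to 1000 UMIs, only 2101 genes still reached 100 UMIs, of which 155 were higher (7.38%) and 96 lower. This share is therefore over a smaller set of more highly expressed genes than the 15.3%.

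Of the 3 genes that go with Slc17a6, none differed by 1.5-fold. The log2 ratio of CCI over WT was 0.35 for Adcyap1 (−0.28 to 1.06), from the 59.9 and 46.9 CPM given above, and −0.39 for Cbln2 (−1.09 to 0.40). Both intervals include 0. With the gate applied after thinning to 1000 UMIs the ratio was −1.21 for Adcyap1 and 0.25 for Ntng1, so their directions depend on that choice. For Cbln2 it was 0.62 when subclusters 1, 2 and 4 were given equal weight. That value rests on 0, 3 and 0 WT UMIs in these subclusters. Within subcluster 2, the only one of them with WT UMIs, the Cbln2 ratio was −0.39 (−2.18 to 2.02). Ntng1 was lower in CCI members, at −0.33 (−0.47 to −0.19), and higher in other CCI neurons, at 0.67. Within the subclusters held by both libraries the Ntng1 ratio was −0.17 in subcluster 1 (−0.59 to 0.28) and −0.46 in subcluster 2 (−1.08 to 0.22). Both of these intervals include 0. In subcluster 4 it was −0.32 (−0.54 to −0.10). Lrrc4c was lower in CCI members by −0.84 (−0.91 to −0.77), with 2478 CPM in CCI and 4429 CPM in WT, and in other neurons by −0.12. In subcluster 4 alone it was −1.06, and −0.35 and −0.33 in subclusters 1 and 2.

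Neuropeptides and the proteins that package them stood higher in the CCI library as a list. Of 31 genes, 24 had at least 20 UMIs in members, 14 of these were at least 1.5-fold higher in CCI and 0 lower, and the median log2 ratio was 0.73 in members and 0.47 in other neurons. Of all genes at that minimum, 20.2% were higher. With a minimum of 100 UMIs, 9 of 15 were higher and 0 lower. Tac1 had 247 UMIs in CCI (41.0 CPM) and 6 in WT (13.4 CPM), a log2 ratio of 1.61 (0.47 to 3.07). Among granule proteins Vgf had 57.2 CPM in CCI and 29.0 CPM in WT, a ratio of 0.98 (0.19 to 1.90), and Chgb 115 CPM in CCI and 69.2 CPM in WT, a ratio of 0.73 (0.22 to 1.30). Pcsk1 and Pcsk1n, a convertase and its inhibitor, had ratios of 0.79 (0.09 to 1.58) and 0.81 (0.34 to 1.33). Cck had 95 UMIs in CCI and 1 in WT, and Penk 101 in CCI and 2 in WT, too few in WT for a size. Cpe, the carboxypeptidase of peptide processing, was close to equal at 434 CPM in CCI and 402 CPM in WT. The subclusters with the most Tac1 and Vgf, 3 and 6, held 98 and 82 CCI nuclei but 6 and 9 WT nuclei. The part of that difference in the list's ratio was not tested.

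Glutamate receptor genes lay close to equal as lists. Of 22 AMPA and kainate receptor genes and their auxiliary subunits, 7 were at least 1.5-fold higher in CCI and 0 lower, with a median of 0.02. Of all genes with at least 20 UMIs, 20.2% were higher and 10.5% lower. Gria1, the GluA1 subunit, stood at 697 CPM in CCI members and 420 CPM in WT members, a ratio of 0.73 (0.52 to 0.95), against 0.36 in other neurons. Gria2 was near equal at 0.04 (−0.09 to 0.18), and Gria3 was lower at −0.48 (−0.67 to −0.29), with 402 CPM in CCI and 562 CPM in WT. The 6 NMDA receptor genes measured had a median of −0.14 and none past 1.5-fold. Of 11 metabotropic receptor and Homer genes, 2 were higher and 0 lower, with a median of 0.27. Of 14 GABA-A receptor genes, 4 were higher (Gabra3, Gabra4, Gabra5, Gabrg3) and 0 lower, with a median of 0.26 in members and 0.29 in other neurons. The 9 genes of glutamate handling had a median of −0.20 and none past 1.5-fold.

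Of 45 potassium channel genes, 12 were higher in CCI and 6 lower, with a median of 0.19, which is near the all-gene background of 20.2% higher and 10.5% lower. Kcna1 and Kcna2, which encode low-threshold delayed rectifier channels, were lower: Kcna2 had 41.0 CPM in CCI and 78.1 CPM in WT (−0.93, −1.45 to −0.38) and Kcna1 49.7 CPM in CCI and 87.0 CPM in WT (−0.81, −1.29 to −0.29). Kcnk2, encoding the leak channel TREK-1, was higher with 82.6 CPM in CCI and 33.5 CPM in WT (1.30, 0.57 to 2.15), as was Kcnn3, encoding the small-conductance calcium-activated channel SK3, at 1.08 (0.38 to 1.87). Of 25 sodium and calcium channel genes, 6 were higher and 2 lower, with a median of 0.12. The lower ones were Scn4b (−2.59, with 38 UMIs in CCI and 17 in WT) and Scn9a (−0.96, −1.18 to −0.73). Scn4b and Syt2 are leading genes of subcluster 4, which held 36 of 171 WT members and 64 of 875 CCI members.

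Of 41 transcription factors of midbrain and diencephalic neurons measured, 11 were higher in CCI and 9 lower, with a median of 0.08. The counts of this list and those that follow stand beside 20.2% higher and 10.5% lower among all genes. Lmx1b had 197 UMIs in CCI (32.7 CPM) and 3 in WT (6.69 CPM), a ratio of 2.29 (0.72 to 4.58), against −0.30 in other neurons. Esrrg was lower at 423 CPM in CCI and 823 CPM in WT, a ratio of −0.96 (−1.12 to −0.80). Lmx1b was highest in subclusters 10 and 0 and Esrrg in subcluster 4. Of 38 vesicle release genes, 5 were higher and 4 lower (median −0.02), and of 46 adhesion genes, 3 were higher and 2 lower (median −0.05), Nrxn3 being lower at −0.84 (−0.92 to −0.76). Of 41 modulator receptor genes, 12 were higher and 5 lower (median 0.16), among them Chrm3, a muscarinic receptor gene, at 0.69 (0.48 to 0.92) and Oprm1, the mu opioid receptor gene, at 0.75 (0.15 to 1.42). Immediate early genes (13 measured) had a median of −0.01 with 2 higher and 1 lower, heat shock genes (16) −0.00 with 0 higher and 2 lower, and glucocorticoid-responsive genes (12) 0.11 with 2 higher and 1 lower. Genes of the axonal injury response (17) had a median of −0.14 with 2 higher and 0 lower, and Atf3 and Sprr1a were at 0 in both libraries.

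The lowest list medians were those of mitochondrially encoded genes and of markers of oligodendrocytes, their precursors and microglia, while astrocyte markers lay near equal. The 13 mitochondrially encoded genes had a median of −0.92, 11 of them at least 1.5-fold lower in CCI, and summed to 2354 CPM in CCI members and 4554 CPM in WT members. In other neurons the median was −1.34. Oligodendrocyte markers had a median of −0.66 in members with 9 of 14 lower, and their sums in members and other neurons are given above. Precursor markers had a median of −0.73 with 1 of 7 higher and 4 lower, microglial markers −0.66 with 0 of 4 higher and 2 lower, and astrocyte markers −0.11 with 6 of 13 higher and 1 lower. Nuclear genes of oxidative phosphorylation (67) had a median of 0.20 in members and 0.05 in other neurons, with 16 higher and 5 lower.

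**Figure D4:**
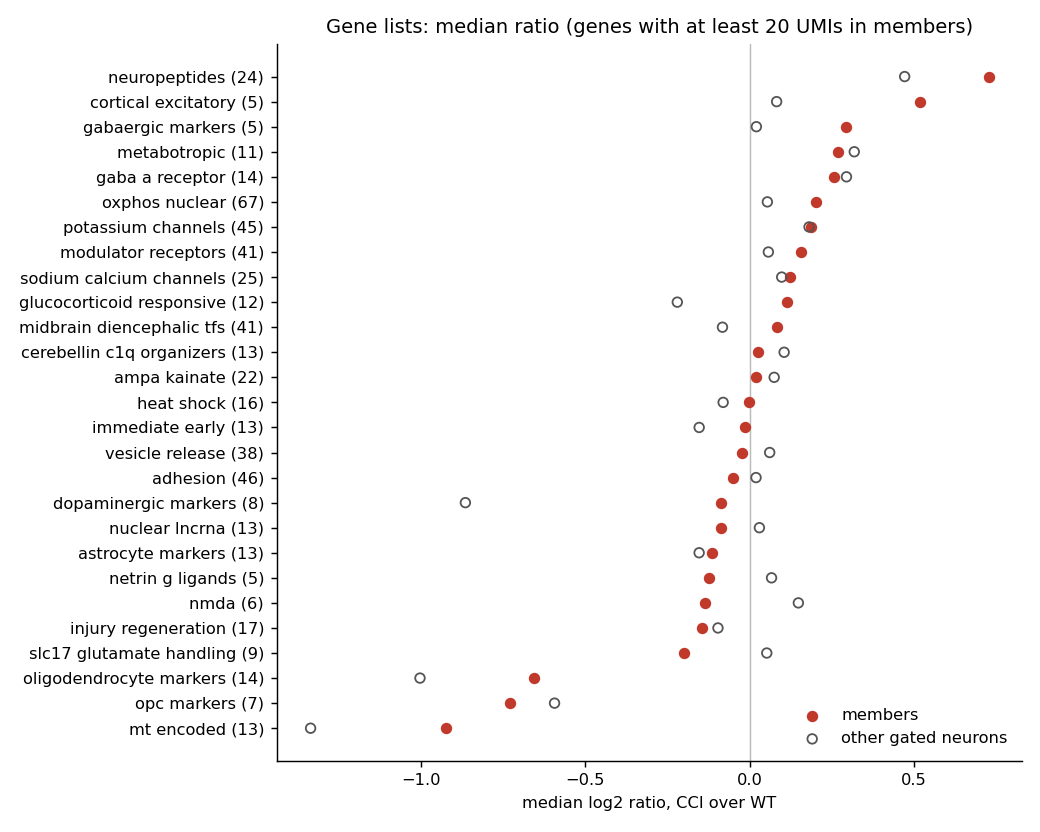
Median log2 ratio of CCI over WT (horizontal axis) for each gene list in members (filled) and in other neurons (open), with the number of genes having at least 20 UMIs in members in parentheses. Neuropeptides lie highest at 0.73 and mitochondrially encoded genes lowest at −0.92, where other neurons lie at −1.34.

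Among the 10 genes ranked highest by the bound nearest 0 were Rims3, Morn1, Slc26a11, Camkv, Zscan18, Calb1, Jade2, Rgs9 and Atp6v0b. Except for Atp6v0b, each rests on 0 to 4 WT UMIs. Rims3, encoding an active-zone protein, had 349 UMIs in CCI (57.9 CPM) and 2 in WT (4.46 CPM), a log2 ratio of 3.70 (1.83 to 6.75), against 0.71 in other neurons. Morn1 had 200 UMIs in CCI and 1 in WT (3.89, 1.40 to 9.20), and Slc26a11, an anion transporter, 108 in CCI and 0 in WT, a ratio of at least 1.42 against a floor of 3 WT UMIs. Calb1, encoding the calcium buffer calbindin, had 264 in CCI and 4 in WT (2.29, 0.92 to 4.18). Camkv, Zscan18, Jade2 and Rgs9 had ratios of 2.23 to 3.38. Atp6v0b, a subunit of the vacuolar proton pump, had 258 CPM in CCI and 107 CPM in WT, a ratio of 1.27 (0.85 to 1.71), against 0.49 in other neurons. Within subclusters 1, 2 and 4 its ratio was 0.49, 1.32 and 1.38. It overlaps Gm12841 on the other strand.

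The genes ranked lowest were Tll1, Syt2, Bnc2, Aff1, Alk, Trim43c, Lrmda, Maf, Cep83 and Mctp2. Tll1, encoding a secreted metalloprotease, had 18.7 CPM in CCI members and 127 CPM in WT members, a ratio of −2.76 (−3.23 to −2.28), and −1.48 in other neurons. Syt2 had 77.4 CPM in CCI and 223 CPM in WT, a ratio of −1.53 (−1.84 to −1.20), and −0.90 in other neurons. Alk, encoding a receptor tyrosine kinase, had 258 CPM in CCI and 594 CPM in WT, a ratio of −1.20 (−1.39 to −1.01), and 0.10 in other neurons. Mctp2 had 30.8 CPM in CCI and 80.3 CPM in WT, a ratio of −1.38 (−1.90 to −0.82), and 0.54 in other neurons. Tll1, Syt2, Trim43c, Aff1 and Maf were among the leading genes of subcluster 4, which made up a larger part of the WT members than of the CCI members. Compared within subcluster 4 alone, the ratio was −2.29 for Tll1, −0.68 for Syt2, −1.30 for Alk, −1.49 for Mctp2, −1.22 for Aff1, −0.67 for Trim43c and −0.38 for Maf. All of them were below 0 there, those of Tll1, Syt2, Aff1, Trim43c and Maf were nearer to 0 than over all members, and the intervals of Trim43c and Maf include 0. The ratio of Alk was 0.24 within subcluster 1 (−0.57 to 1.17) and −1.17 within subcluster 2 (−2.22 to 0.02), and both intervals include 0.

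**Figure D5:**
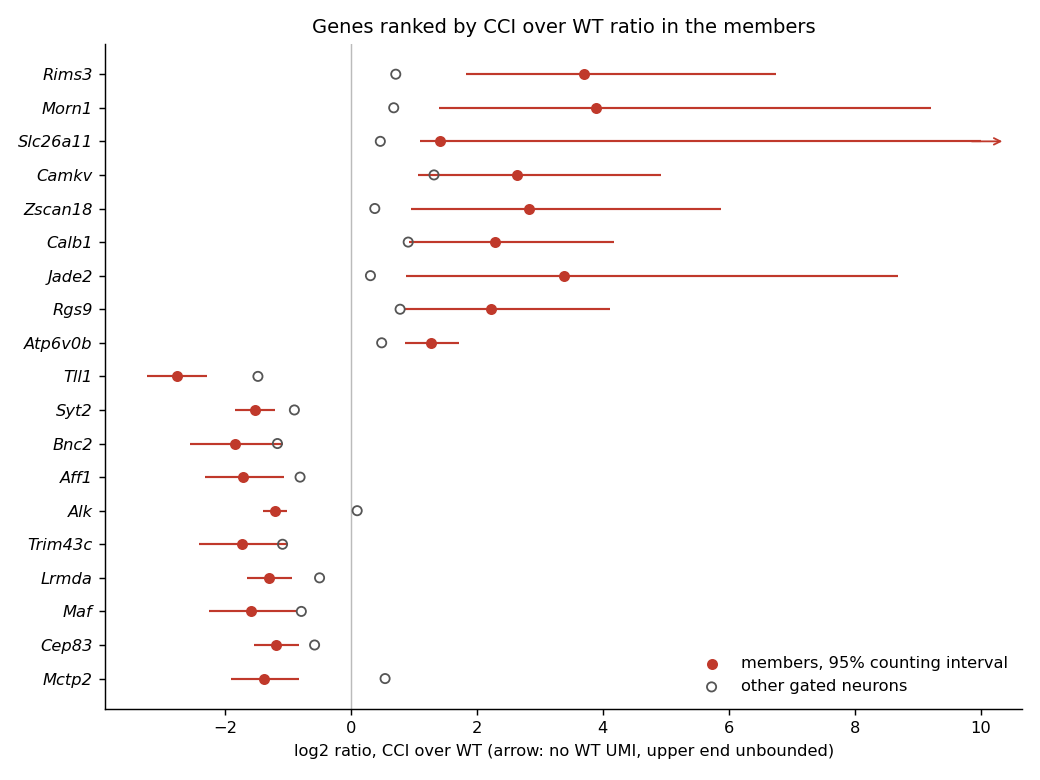
Log2 ratio of CCI over WT in members (filled, with 95% counting interval) and in other neurons (open) for 9 of the 10 genes ranked highest and the 10 ranked lowest. The intervals of the higher genes are wide, as they rest on 0 to 4 WT UMIs except for Atp6v0b; Alk and Mctp2 lie below 0 in members and above 0 in other neurons.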

How the data were processed

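Barcodes of the VTA, called nuclei after the design text although the protocol describes tissue dissociation, were profiled in 1 CCI and 1 WT library. The authors deposited raw UMI counts, produced by Cell Ranger (version 7.1.0 per the file headers) with build mm10, per the submitters' processing notes. Those notes also name Seurat, with no step. Use of intronic reads, strand and the annotation release are not given in the sources used here. Every entry was a whole number, and 32158 of 32285 gene identifiers were in GENCODE vM21, which gave coordinates. No map of cells to animals is given.

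The gate was applied to raw counts, and doublet calls (Scrublet in Scanpy 1.11.5, within each library, expected rate 10%) were counted but not removed. No other filter on barcodes was used. UMIs were summed per library and expressed as CPM of the nuclei's own total. A log2 ratio has an exact conditional 95% interval for 2 Poisson counts, and a share an exact Clopper-Pearson interval (SciPy 1.17.1). A gene at 0 on 1 side was set to a floor of 3 counts over the group. For shares of nuclei with a UMI, nuclei were thinned to 1000 UMIs and shallower ones left out (1 in CCI, 5 in WT). Subclusters came from 1500 variable genes found in at least 50 nuclei, scaled within library, 20 principal components, 15 neighbours and Leiden resolution 1.0 (leidenalg 0.10.2). Leading genes had to occur in 20% of a subcluster's nuclei. The calculations were tested on simulated counts.

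To choose the genes named, ratios were ordered on whichever end of their interval lay closer to 0. Gate genes, glial and vascular markers, genes of the mitochondrial genome, ribosomal proteins and haemoglobins, sex-linked genes and gene models without a name were left out. They are the 10 highest and 10 lowest between libraries, the 15 highest in members over other neurons of both libraries, the 8 highest and 8 lowest against set-aside neurons, up to 4 genes of each list and up to 5 leading genes of each subcluster. Chgb, Pcsk1, Cck, Penk, Kcna1 and further genes given as highest in a subcluster go beyond this rule and were chosen after their values were seen. A few genes that meet the rule are not reported here. Genes had to have 100 UMIs in members, and 20 to be counted in a list. The members and the 33 gene lists were chosen with earlier results of these data known. Alternatives covered depth, the gate's limits, doublets, scaling (edgeR 4.0.16), gene minimums and weighting of nuclei and subclusters.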

Additional observations from a re-analysis of the deposited data

Results flagged for a closer look

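Among genes whose ratio between the libraries was printed or ranked, 9 differed in opposite directions in members and in other neurons and by at least 1.5-fold in one of them. The difference between the 2 kinds of neuron was not tested, since each group is 1 library. Alk had a log2 ratio of CCI over WT of −1.20 in members and 0.10 in other neurons. Within subcluster 1 of the members it was 0.24, with an interval of −0.57 to 1.17. Mctp2 had −1.38 in members and 0.54 in other neurons. Vav3, the exchange factor that was also much lower in members than in set-aside neurons, had −0.52 in members and 0.91 in other neurons. Sh3d19 had −0.10 in members, where the interval of −0.57 to 0.41 includes 0, and 0.61 in other neurons. Lmx1b had 2.29 in members, from 3 WT UMIs, and −0.30 in other neurons. Kcnn3 had 1.08 in members and −0.06 in other neurons, and Pcsk1 0.79 in members and −0.13 in other neurons. Meis2 had −0.90 in members and 0.89 in other neurons. Ntng1 had −0.33 in members and 0.67 in other neurons, which include the set-aside Synpo2-step nuclei with 3805 CPM of Ntng1 in CCI and 2965 CPM in WT, 177 of 6460 other neurons in CCI and 11 of 6548 in WT.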

How the results depend on the processing

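No paired analysis was possible because each group has 1 library. The main limit is depth: CCI neurons were several times deeper, and the gate needs Slc17a6 UMIs. The log2 ratio of the members' share, 2.23, was 0.84, 0.77 and 0.78 after thinning to 1000, 2000 and 3000 UMIs, 0.28 with 1 Slc17a6 UMI required, 4.45 with 3, and 2.49 with a 2% neuron gate.

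Thinned to 1000 UMIs before the gate, which leaves 66 CCI and 28 WT members, the ratio of members over other neurons was 0.75 in CCI and 2.19 in WT for Adcyap1, 0.37 and 1.54 for Cbln2, 0.11 and 0.45 for Ntng1 and −0.41 in WT for Etl4, and 85 genes were higher in both libraries in place of 13. Without thinning, the ratio of members over set-aside neurons was 0.26 and 1.57 for Cbln2, −1.41 and −0.51 for Ntng1, −0.23 in CCI for Tmem163, −0.81 in WT for Gulp1 and −0.019 in WT for Unc13c, with 125 genes higher. Ntng1 was 1.31 in WT with 3 Slc17a6 UMIs and 0.21 in CCI as a mean of per-nucleus CPM.

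Between CCI and WT, 7.38% of genes were higher after thinning members, 9.94% within subcluster 4 and 25.1% with 3 Slc17a6 UMIs (24 WT nuclei). The share lower was 10.5% with a minimum of 20 UMIs, 14.6% with 1, 8.81% within subcluster 1, 10.6% within subcluster 4 and 14.9% with 3 Slc17a6 UMIs. Ntng1 was −0.19 thinned, 0.25 thinned before the gate, −0.13 per nucleus, −0.17 within subcluster 1 and −0.66 with 3 Slc17a6 UMIs. Adcyap1 was −1.21 thinned before the gate and −0.57 within subcluster 2. Cbln2 was 0.62 with equal weight for shared subclusters, from 3 WT UMIs. The sign also turned for Lrmda thinned before the gate (0.18), Alk within subcluster 1 (0.24), Rgs9 within subcluster 2 (−0.018), the microglial list with equal weights (0.85) and the oligodendrocyte list within subcluster 1 (0.19). The intervals of Alk (−0.57 to 1.17, 13 WT UMIs) and Rgs9 (−1.75 to 2.37, 3 WT UMIs) in those subclusters include 0. The cause was not tested.

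At 2000 UMIs 0 of 107 WT nuclei had both Adcyap1 and Cbln2, against 0.14 expected, a ratio of 0.00. Both Adcyap1 and Ntng1 were found in 1, against 3.46 expected, a ratio of 0.29. These counts are too few to detect a departure from independence. The ratio of Ntng1 shares was 0.29 unthinned, and resolution 2.0 gave 26 subclusters. Thinning to 2000 and 3000 UMIs before the gate, the values within subclusters and the CCI-WT values with 3 Slc17a6 UMIs were chosen after seeing the data, as was leaving out subclusters 7 and 15, which gave 1245 genes higher and 467 lower of 7903. Of 851 values under these and the other settings, 687 moved by less than their interval or 1.5 times, 154 moved by more, some of them across 0 from under 1.5-fold, and 10 that were at least 1.5-fold turned sign.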
